A study of Homo sapiens with 16 samples.

Results

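The genes described here are 10 surface markers of mesenchymal stem cells (MSCs): NT5E, THY1, ENG, CD44, ALCAM, MCAM, PDGFRA, PDGFRB, NGFR and LEPR. The rule that chose them lists their names and uses no measured value, although they were proposed with earlier results of these data known. They were found by matching the Ensembl identifiers of the count table to GENCODE symbols. They are 10 of the 60649 genes counted, and all 10 passed the filter on low counts that left 19103 genes for testing. The cells were ASC52telo, an MSC line from adipose tissue that was immortalized with telomerase, so all libraries come from 1 line and none of the groups stands for a range of donors. In the MmC-/GDF11- and MmC-/GDF11+ groups the cells had no mitomycin C (MmC), a DNA alkylating agent, and are called "young" MSCs. In the MmC+/GDF11- and MmC+/GDF11+ groups the cells had been exposed to MmC at 1.5 µg/mL for 18 h to make them senescent. Recombinant GDF11, a secreted factor of the TGF-beta family, was added at 10 ng/mL to the MmC-/GDF11+ and MmC+/GDF11+ groups, and RNA was taken after 10 days. Each group had 4 poly(A) RNA libraries, with 71275337 to 144204979 counts per library, which the study's methods call biological replicates. No source used here says whether they were separate cultures, and the study names batch effects among its limits, so p-values measure only the spread between these libraries. All values are RNA levels of whole cultures, in which fewer cells of a type and less RNA per cell cannot be told apart, and they are no measure of protein on the cell surface.

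MSCs have no single defining gene. They are recognised as plastic-adherent cells that carry CD73, CD90 and CD105, the products of NT5E, THY1 and ENG, and lack antigens of blood and endothelial lineages. NT5E is an ectoenzyme that makes adenosine from AMP, THY1 is a glycoprotein anchored in the outer membrane by a lipid, and ENG is a co-receptor for ligands of the TGF-beta family. CD44 binds hyaluronan, and ALCAM (CD166) and MCAM (CD146) are adhesion molecules of the immunoglobulin superfamily. PDGFRA and PDGFRB are the receptor tyrosine kinases for platelet-derived growth factors. NGFR (CD271) binds neurotrophins and LEPR binds leptin, and both have been used to enrich MSCs from bone marrow.

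In the comparison of MmC+/GDF11- with MmC-/GDF11-, which asks what MmC did without GDF11, NT5E and NGFR rose, PDGFRA and PDGFRB fell, and the other 6 genes did not pass the threshold. A gene passed at a Benjamini-Hochberg adjusted p under 0.05 over all genes tested with edgeR's quasi-likelihood test. These were 4 of 10 genes, where 45.3% of all tested genes passed, or 2 higher and 2 lower, where 22.9% and 22.4% of all genes passed in those directions. With GDF11 in both groups (MmC+/GDF11+ against MmC-/GDF11+) the same 4 genes passed in the same directions and CD44 rose as well, which made 5 of 10, where 46.7% of all genes passed (3 higher beside 23.4%, 2 lower beside 23.3%). At an unadjusted p under 0.05 the counts were 5 and 5, where 52.7% and 53.9% of all genes had one. The numbers allow the replicate number as a block for the comparison without GDF11, although only by a small margin for replicate 3. With this block THY1, CD44 and ALCAM passed too, which made 7 of 10, where 57.9% of all genes passed. With GDF11, where the numbers do not pair the libraries, the block also gave 7 of 10, where 59% of all genes passed. The shares without the block are near those of all genes, so the counts are no result about the markers as a list. Their median log2 fold change was 0.25 without GDF11 and 0.23 with it, beside medians of -0.01 and -0.01 over all tested genes. In 4 of 10 genes the libraries of the compared groups did not overlap, in each of both comparisons, where 37.3% and 41.5% of all genes did not. For GDF11, none of the 10 genes passed in young or in senescent MSCs. Together the 10 genes took 0.412% to 0.502% of the counts of a library.

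**Figure D1:**
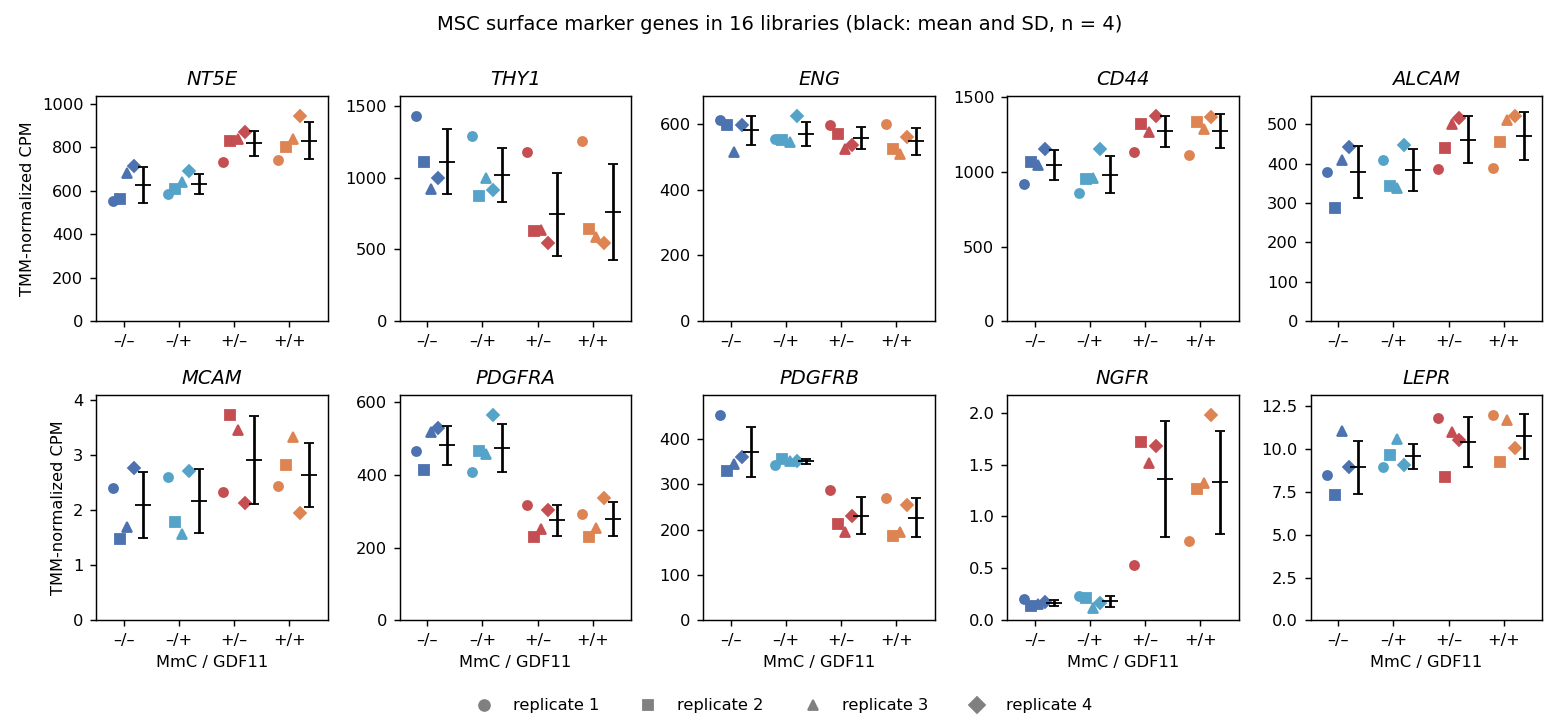
Level of each marker gene in all 16 libraries, in CPM (y axis, from 0), by group (x axis, MmC before the slash and GDF11 after it). Symbols mark the replicate number and black bars the mean and SD of 4 libraries. NT5E lies higher and PDGFRA and PDGFRB lie lower in all 8 MmC+ libraries than in all 8 MmC- libraries, and NGFR is between 0.115 and 0.236 in the MmC- libraries.

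NT5E (ENSG00000135318.12, chr6:85449584-85495791, plus strand of hg38) was higher in every senescent library than in every young one. Its level, given as CPM (the count over the TMM-scaled library size, times 1000000), was 551, 562, 679 and 712 in the 4 MmC-/GDF11- libraries. In MmC+/GDF11- it was 733, 829, 837 and 868. With GDF11 the young libraries stood at 586, 607, 638 and 689 and the senescent ones at 742, 799, 838 and 942. The lowest senescent library was thus above the highest young one with and without GDF11, although by a small margin. The group means without GDF11 were 626 ± 81.5 and 817 ± 58.3 CPM (SD, n = 4), and the fitted change was 1.30-fold (log2 fold change 0.38, SE 0.11, adjusted p = 0.00989). With GDF11 the change was 1.32-fold (0.40 on the log2 scale, adjusted p = 0.00770). Paired by replicate number, all 4 differences were positive in both comparisons, as they must be without overlap. They lay between 0.29 and 0.56 without GDF11 and between 0.34 and 0.45 with it on the log2 scale. Without replicate 2 of every group the adjusted p without GDF11 was 0.0850, and without replicate 3 it was 0.0532 without GDF11 and 0.0555 with it, at log2 fold changes of 0.33, 0.42 and 0.42.

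THY1 (ENSG00000154096.14, chr11:119415476-119424985, minus strand) was the marker with the largest spread between replicates among the abundant ones, and its call depended on 1 library in each senescent group. In the young libraries without GDF11 it stood at 1429, 1107, 920 and 995 CPM for replicates 1 to 4. In MmC+/GDF11- replicate 1 stood at 1176 CPM and replicates 2, 3 and 4 at 628, 633 and 548. The 2 groups with GDF11 had the same shape, with 1292, 874, 999 and 914 CPM in the young libraries and 1257, 642, 587 and 546 CPM in the senescent ones. Replicate 1 was the highest library of THY1 in all 4 groups, and replicates 2 to 4 were lower in each senescent group than in any young library. Over all libraries the log2 fold change was -0.58 without GDF11 (SE 0.28, adjusted p = 0.101) and -0.43 with GDF11 (adjusted p = 0.219), and neither passed. Within replicate numbers the senescent library was the lower one in 4 of 4 pairs, by -0.28, -0.82, -0.54 and -0.86 on the log2 scale without GDF11 and by -0.04, -0.44, -0.77 and -0.74 with it. With the replicate number as a block, which the labels' numbers allowed by a small margin for the comparison without GDF11, THY1 fell (-0.63 on the log2 scale, adjusted p = 0.000388). Leaving out MmC+/GDF11- replicate 1 gave -0.87 (adjusted p = 0.0118), and leaving out MmC+/GDF11+ replicate 1 gave -0.78 with GDF11 (adjusted p = 0.0136). Of the exons of THY1, 12.5% are also covered on the opposite strand by THY1-AS1, with 20 to 101 counts per library, and USP2-AS1, with 5 to 73.

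ENG (ENSG00000106991.14, chr9:127815013-127854658, minus strand) varied least of the 10 genes: its highest library was 1.23-fold above its lowest. The means of the young groups were 580 ± 43.9 CPM without GDF11 and 568 ± 36.9 with it, and those of the senescent groups were 556 ± 33.0 and 548 ± 41.0 (SD, n = 4). The change with MmC was -0.06 on the log2 scale without GDF11 (95% interval -0.25 to 0.13, adjusted p = 0.618) and -0.05 with it (-0.25 to 0.14, adjusted p = 0.658). Replicate 3 was the lowest library of ENG in all 4 groups.

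Among the adhesion genes, CD44 (ENSG00000026508.20, chr11:35138882-35232402, plus strand) had the most even change within replicate numbers without GDF11. Without GDF11 it stood at 919, 1069, 1046 and 1158 CPM in replicates 1 to 4 of the young cells and at 1133, 1319, 1267 and 1375 CPM in those of the senescent cells. With GDF11 the young libraries had 859, 952, 959 and 1157 CPM and the senescent ones 1112, 1338, 1288 and 1368. Replicate 1 was the lowest and replicate 4 the highest library in all 4 groups, so that the groups overlapped although each senescent library stood above the young library of its own number. Without GDF11 those differences were 0.30, 0.30, 0.28 and 0.25 on the log2 scale. The fit over all libraries gave 0.28 (SE 0.12, 1.22-fold), at an adjusted p of 0.0566 that missed the threshold, and it passed without MmC-/GDF11- replicate 4 (0.34, adjusted p = 0.0363) or MmC+/GDF11- replicate 1 (0.34, adjusted p = 0.0280). The fit with the replicate number as a block gave the same 0.28 with an adjusted p of 0.00309. With GDF11, CD44 rose 1.30-fold (0.38 on the log2 scale, adjusted p = 0.0132) in the fit without a block, and lost the call without replicate 2 of every group (adjusted p = 0.0940) or without replicate 3 (adjusted p = 0.0934). The difference between the changes with and without GDF11 was 0.10 on the log2 scale (95% interval -0.25 to 0.44).

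ALCAM (ENSG00000170017.12, chr3:105366909-105576900, plus strand) had means of 379 ± 65.8 CPM in young MSCs without GDF11 and 384 ± 53.2 with it, beside 461 ± 59.6 and 469 ± 60.5 CPM in senescent MSCs (SD, n = 4), and the young and senescent libraries overlapped. The log2 fold change with MmC was 0.28 without GDF11 (adjusted p = 0.126) and 0.29 with it (adjusted p = 0.112), the latter being 0.38 without MmC+/GDF11+ replicate 1 (adjusted p = 0.0495). With the block the comparison without GDF11 passed (0.29, adjusted p = 0.0330), and the senescent library stood above the young one of its number in 4 of 4 pairs, by 0.03 to 0.61. MCAM (ENSG00000076706.17, chr11:119308529-119321521, minus strand) was scarce, at 2.08 ± 0.598 CPM in young and 2.90 ± 0.796 CPM in senescent MSCs without GDF11 (SD, n = 4), and each library gave 122 to 488 counts. Its log2 fold changes of 0.48 without GDF11 (adjusted p = 0.136) and 0.28 with it (adjusted p = 0.379) did not pass. The 4 pairs did not share a direction, since the differences for replicates 1 to 4 without GDF11 were -0.05, 1.33, 1.03 and -0.37 on the log2 scale. Without replicate 4 of every group the comparison without GDF11 gave 0.78 (adjusted p = 0.0364). The gene CBL, with 1546 to 5699 counts per library, covers 6.86% of the exons of MCAM on the opposite strand, and the strand setting of the counting is not given in the sources used here.

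**Figure D2:**
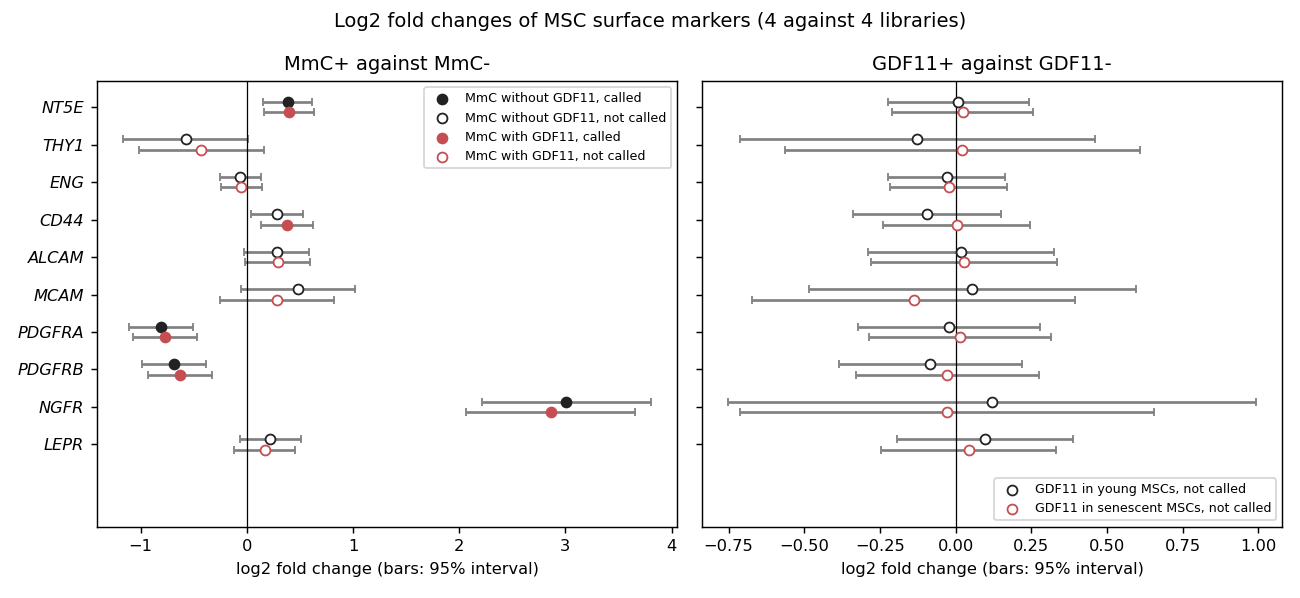
Fitted log2 fold change of each marker gene for MmC without and with GDF11 and for GDF11 in young and senescent MSCs, with 95% intervals and filled symbols where the adjusted p is under 0.05. NT5E and NGFR lie to the right of 0 and PDGFRA and PDGFRB to the left for MmC, and all GDF11 intervals include 0.

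The PDGF receptors fell together. PDGFRA (ENSG00000134853.12, chr4:54229280-54298245, plus strand) had 464, 412, 517 and 527 CPM in young MSCs without GDF11, for replicates 1 to 4, and 316, 228, 250 and 303 CPM in the senescent ones. With GDF11 the young libraries had 408, 465, 456 and 563 CPM and the senescent ones 293, 229, 252 and 336. The 8 senescent libraries all lay below the 8 young ones. The level was 1.75-fold lower without GDF11 (log2 fold change -0.81, SE 0.14, adjusted p = 0.000287) and 1.70-fold lower with it (-0.77, adjusted p = 0.000426). A readthrough gene on the same strand shares 16.1% of the exons of PDGFRA and had 0 counts in all libraries. How reads in shared exons were counted is not given in the sources used here. The level of PDGFRA per kilobase and its ratio to PDGFRB rest on that setting.

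PDGFRB (ENSG00000113721.14, chr5:150113839-150155872, minus strand) had 452, 329, 344 and 359 CPM in young MSCs without GDF11, again for replicates 1 to 4, and 287, 213, 194 and 229 CPM in senescent MSCs. In MmC-/GDF11+ it stood at 343, 355, 352 and 350 CPM, the tightest group of any marker (350 ± 5.02, SD, n = 4). In MmC+/GDF11+ it stood at 271, 186, 195 and 255 CPM. As for PDGFRA, no senescent library reached the level of a young one. PDGFRB was 1.61-fold lower without GDF11 (log2 fold change -0.68, SE 0.14, adjusted p = 0.00112) and 1.54-fold lower with it (-0.63, adjusted p = 0.00204). As the groups did not overlap, the 4 pairs by replicate number necessarily fell for both receptors and in both comparisons. Without GDF11 the differences were -0.56 to -1.05 for PDGFRA and -0.62 to -0.82 for PDGFRB on the log2 scale.

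The ratio of the receptors changed little beside its spread. Per kilobase of exon, the ratio of PDGFRB to PDGFRA in young MSCs was 1.04 ± 0.190 without GDF11 and 1.00 ± 0.124 with it, and in senescent MSCs 1.13 ± 0.121 without and 1.09 ± 0.10 with it (SD, n = 4), and the ranges of the groups overlapped. Of the PDGF ligands, 3 of 4 listed genes were tested. None passed without GDF11, where 45.3% of all genes did. With GDF11 1 rose, where 23.4% of all genes did, namely PDGFC (0.43 on the log2 scale, adjusted p = 0.0473). It lost this call without MmC-/GDF11+ replicate 1 (0.32, adjusted p = 0.127), without any of MmC-/GDF11+ replicates 2 and 3 and the 4 MmC+/GDF11+ libraries (adjusted p from 0.0548 to 0.0891), and without a filter on low counts (0.0665). Without GDF11 PDGFC stood at 62.4 ± 16.8 CPM in young and 83.2 ± 2.46 CPM in senescent libraries (adjusted p = 0.0561). With the block, 2 of the 3 passed without GDF11, 1 higher and 1 lower, where 57.9% of all genes passed.

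As these receptors are the pair of markers that fell together, the 250 bases before 1 RefSeq start of each are shown. Windows are from GRCh38.p14, each in the gene's own direction, 5′ to 3′. GC boxes (GGGCGG, or on the other strand CCGCCC) and CCAAT boxes (CCAAT, or on the other strand ATTGG) are in capitals.
PDGFRA, chr4:54233710-54233959, plus strand: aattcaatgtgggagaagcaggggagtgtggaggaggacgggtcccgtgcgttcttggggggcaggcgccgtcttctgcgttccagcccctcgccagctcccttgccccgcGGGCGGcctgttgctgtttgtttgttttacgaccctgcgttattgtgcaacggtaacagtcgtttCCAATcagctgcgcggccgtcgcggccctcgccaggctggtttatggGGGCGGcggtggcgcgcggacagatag
PDGFRB, chr5:150155846-150156095, minus strand: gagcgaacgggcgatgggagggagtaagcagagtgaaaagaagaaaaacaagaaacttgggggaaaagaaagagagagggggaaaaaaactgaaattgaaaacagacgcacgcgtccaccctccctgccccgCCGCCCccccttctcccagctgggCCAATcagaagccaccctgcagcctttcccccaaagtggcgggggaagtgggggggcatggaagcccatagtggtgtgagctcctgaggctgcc
The window shown for PDGFRA holds 2 GC boxes and 1 CCAAT box, and that for PDGFRB holds 1 of each. Of 35116 promoter windows of this length, 42.6% hold a GC box and 32.0% a CCAAT box on either strand. Neither window holds the TATA box TATAAA (held by 10.7% of promoter windows), the AP-1 motif TGACTCA (4.20%) or the E box letters CACGTG (6.34%) on either strand. RefSeq also lists a start of PDGFRA at the 5′ end of the gene, whose window at chr4:54229043-54229292 holds none of these 5 motifs. The PDGFRA window shown lies inside the span of the gene given above. Whether both receptors hold GC and CCAAT boxes thus depends on the start chosen.

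NGFR (ENSG00000064300.9, chr17:49495293-49515008, plus strand) changed most of the 10 genes and was also the scarcest. In MmC-/GDF11- it had 0.208, 0.135, 0.157 and 0.174 CPM, which were 16, 13, 12 and 18 counts. In MmC+/GDF11- it had 0.537, 1.71, 1.52 and 1.68 CPM, which were 53, 147, 136 and 146 counts. With GDF11 the young libraries had 0.236, 0.215, 0.115 and 0.168 CPM and the senescent ones 0.766, 1.26, 1.32 and 1.97 CPM. All senescent libraries lay above all young ones, and replicate 1 was the lowest of both senescent groups. The level was 8.05-fold higher without GDF11 (log2 fold change 3.01, SE 0.38, 95% interval 2.21 to 3.81, adjusted p = 1.30e-05) and 7.26-fold higher with it (2.86, adjusted p = 2.01e-05). NGFR was the only member called when the test asked for a change of more than 2-fold (edgeR's glmTreat). Antisense genes cover 27.2% of its exons on the opposite strand, and the one that was counted at all, NGFR-AS1, had 0 to 3 counts per library.

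LEPR (ENSG00000116678.20, chr1:65420652-65641559, plus strand) stood at 8.94 ± 1.55 CPM in young MSCs without GDF11 and 9.56 ± 0.739 with it, and at 10.4 ± 1.47 and 10.7 ± 1.31 CPM in senescent MSCs (SD, n = 4). Its groups overlapped, and its log2 fold changes with MmC of 0.22 (95% interval -0.07 to 0.51, adjusted p = 0.200) and 0.17 (-0.12 to 0.46, adjusted p = 0.336) did not pass. LEPR shares 1.45% of its exons with LEPROT on the same strand, a gene with 9030 to 21491 counts per library where LEPR had 645 to 1715.

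The plot of libraries joined by replicate number shows 4 of the genes whose replicates differed most visibly or least. For THY1 the line of replicate 1 runs above the others through all groups, and for CD44 the lines run nearly parallel. For NGFR replicate 1 is the highest library in both young groups and the lowest in both senescent ones.

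**Figure D3:**
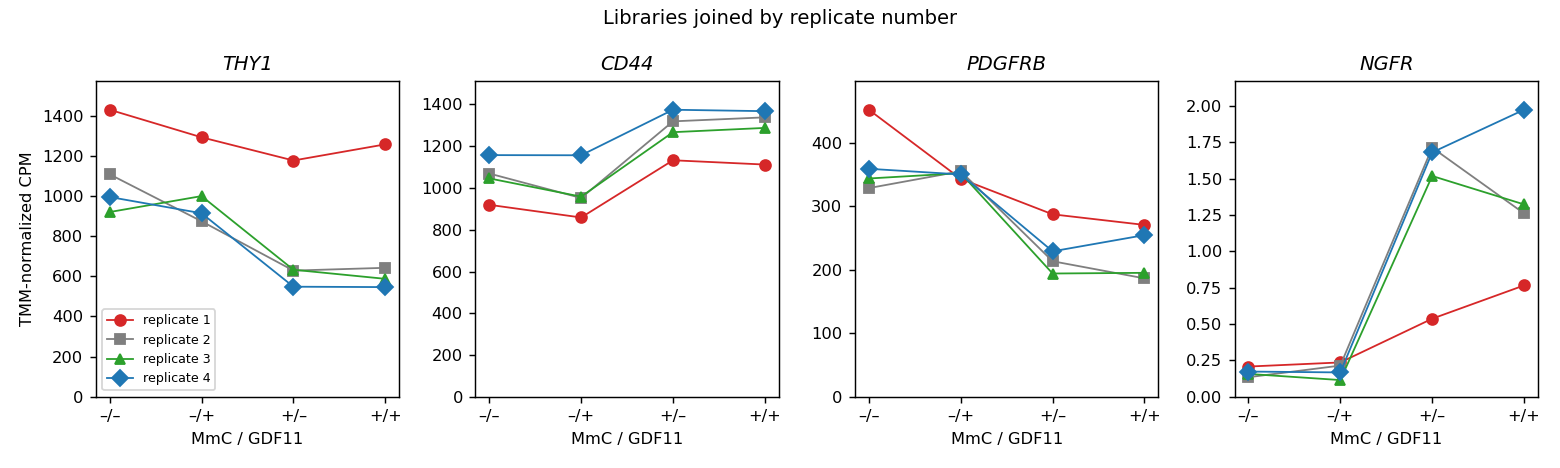
Level of THY1, CD44, PDGFRB and NGFR (y axis, TMM-scaled CPM, from 0) in the 4 groups (x axis), with libraries of the same replicate number joined by a line. Replicate 1 of THY1 stays at 1176 CPM or above in every group, and the CD44 lines of all 4 numbers go up from young to senescent.

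The order of the markers among themselves was compared per length, as CPM per kilobase of exon. In MmC-/GDF11- the most abundant were THY1 (161 ± 32.5), ENG (151 ± 11.4), NT5E (138 ± 18.0) and CD44 (105 CPM per kilobase), followed by ALCAM (52.8), PDGFRB (52.0) and PDGFRA (50.3). LEPR (0.786), MCAM (0.281) and NGFR (0.0406) were lower by far. THY1, ENG and NT5E overlapped with their neighbours in this order, as did ALCAM, PDGFRB and PDGFRA, so that the order within each of these trios was not set beyond the spread. In MmC+/GDF11- NT5E came first (180 CPM per kilobase) and did not overlap with ENG (145), which was followed by CD44 (127) and THY1 (108), each overlapping with the next. ALCAM (64.1) now stood above PDGFRB (32.4) and PDGFRA (28.7) without overlap, and MCAM (0.391) and NGFR (0.329) overlapped, which they had not done in young MSCs. The 2 groups with GDF11 had the same neighbours overlapping as the groups without it, with ENG and THY1 and PDGFRA and PDGFRB trading places in the young ones.

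**Figure D4:**
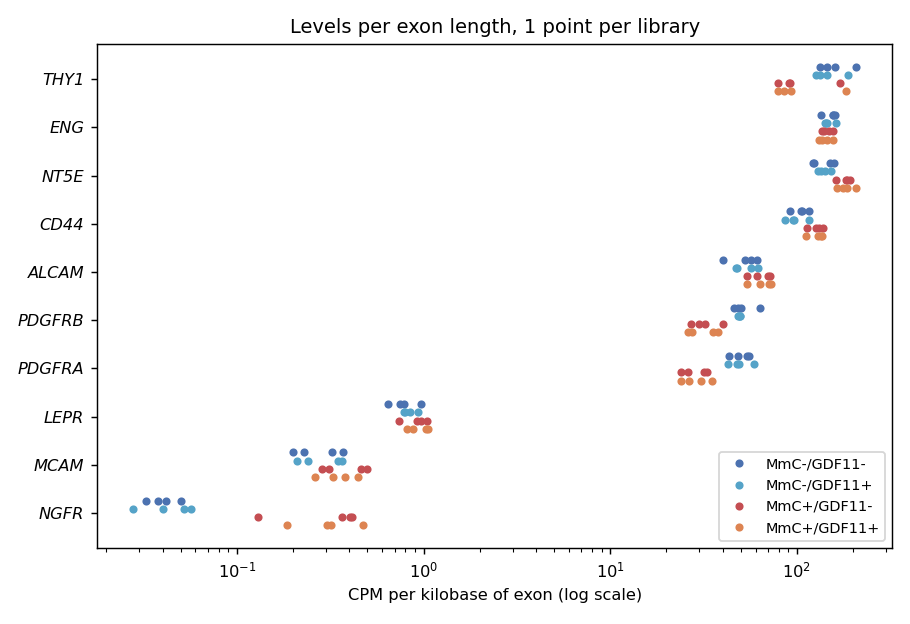
Level of each marker gene per exon length (x axis, CPM per kilobase of exon, log scale), 1 point per library, coloured by group. LEPR, MCAM and NGFR lie far to the left of the other 7 genes, and NGFR of the senescent libraries reaches the range of MCAM.

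GDF11 was compared within young MSCs (MmC-/GDF11+ against MmC-/GDF11-) and within senescent MSCs (MmC+/GDF11+ against MmC+/GDF11-), to see whether it moved the markers or reversed their changes. None of the 10 genes passed in either comparison, where 0% of all tested genes passed in both. None had an unadjusted p under 0.05 either, which 1.18% of all genes had in young MSCs and 0.503% in senescent ones, and for none did the libraries of the groups separate, as they did for 0.89% and 0.503% of all genes. Both shares of p under 0.05 are smaller than the share a test gives at that threshold when no gene changes. The test was thus strict here, and 0 of 10 does not show that GDF11 left the markers unchanged. The largest fitted changes in young MSCs were -0.13 on the log2 scale for THY1 (95% interval -0.71 to 0.46) and 0.12 for NGFR (-0.75 to 0.99), and in senescent MSCs -0.14 for MCAM (-0.67 to 0.39). The intervals come from the fit without a replicate block and were narrow for the abundant and even genes. In senescent MSCs that of NT5E was -0.21 to 0.26, that of CD44 -0.24 to 0.25, that of PDGFRA -0.28 to 0.32 and that of PDGFRB -0.33 to 0.27. For PDGFRA and PDGFRB these intervals do not reach the size of the fall with MmC. The replicate numbers paired the libraries for GDF11 in senescent MSCs, so these intervals also hold the spread between replicate numbers. For THY1 the interval was -0.56 to 0.61, while the differences within replicate numbers were -0.11 to 0.10. With the block, 0 of the 10 genes passed for GDF11 in senescent MSCs, and 0 of all tested genes. The test of whether the change with MmC differed with and without GDF11 (the interaction) passed for 0 of 10 genes, and none had an unadjusted p under 0.05, where 0.9% of all genes did. Its interval for NT5E ran from -0.32 to 0.34 and that for PDGFRA from -0.39 to 0.46 on the log2 scale, while that for NGFR ran from -1.26 to 0.96. The 4 comparisons share groups pairwise and are not independent of each other. DESeq2 and limma-voom called none of the 10 genes in any comparison of GDF11 either, and over all genes DESeq2 called 1 in young MSCs and 0 in senescent MSCs.

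Partner genes of the markers were counted from lists of their pathways, which were chosen with earlier results known. All these counts, and those of the other antigens and cell types after them, stand beside 45.3% of all tested genes called without GDF11 (22.9% higher, 22.4% lower) and 46.7% with it (23.4% and 23.3%), and beside medians of -0.01 over all genes. The lists hold 18 tested genes or fewer, no list was tested against all genes, and the counts describe the listed genes only. Several listed genes had too few counts in MmC-/GDF11- libraries to pass the filter there, and passed through other groups. Among them were NTRK2, BMP10, LEP, ITGAM, CD163, CD68 (53 counts against 100 in MmC+/GDF11-) and KDR (8 against 54). These named genes could thus be called higher but hardly lower, and where they are counted they are among the genes that rose. Around NT5E, 9 of 11 listed genes of extracellular adenosine were tested, and 1 rose and 5 fell with MmC without GDF11, and 1 rose and 4 fell with GDF11, so 6 and 5 of 9 were called. The median log2 fold change of the 9 genes was -0.48 without GDF11 and -0.53 with it. ADA, which deaminates adenosine, went from 24.7 ± 3.80 to 14.0 ± 3.15 CPM without GDF11 (SD, n = 4, log2 fold change -0.82, adjusted p = 0.00177). ADK, which phosphorylates adenosine, had a log2 fold change of -0.43 (adjusted p = 0.00395), and ENPP1, an ectoenzyme that splits ATP, one of -0.75 (adjusted p = 0.000345). The nucleoside transporter SLC29A2 fell most (-1.55, adjusted p = 0.000331) from a low level of 0.596 ± 0.182 CPM. With GDF11 it was called too, but not without MmC-/GDF11+ replicate 4 (-0.72, adjusted p = 0.0565). Nor was it without replicate 3 (-0.81, adjusted p = 0.115) or 4 (-0.75, adjusted p = 0.0648) of every group. The adenosine receptor ADORA2A rose (1.02, adjusted p = 0.00595), but it stood at 0.152 ± 0.0168 CPM in young MSCs, and 56.8% of its exons are shared on the same strand with a readthrough gene. Its adjusted p was 0.0505 without replicate 2 of every group and 0.0525 without replicate 3. The receptor ADORA1 fell (-0.74, adjusted p = 0.0388), and without replicate 1 of every group it did not pass (-0.20, adjusted p = 0.385). Nor did it without MmC-/GDF11- replicate 1 (-0.30, adjusted p = 0.253), without MmC+/GDF11- replicate 1 (0.102) or 4 (0.0950), or with limma-voom (0.0667).

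Around ENG, which did not pass itself, 4 of 9 tested genes of TGF-beta and BMP signalling rose and none fell, with and without GDF11, a called share near that of all genes, at medians over the 9 genes of 0.23 without GDF11 and 0.28 with it on the log2 scale. TGFBR1, the type I receptor, went from 41.7 ± 9.55 to 86.8 ± 8.98 CPM without GDF11 (SD, n = 4, log2 fold change 1.06, adjusted p = 0.000168). The type II receptor TGFBR2 went from 387 ± 63.1 to 580 ± 29.0 CPM (0.58, adjusted p = 0.00224) and the ligand TGFB2 from 8.36 ± 1.12 to 14.9 ± 1.99 CPM (0.84, adjusted p = 5.40e-05). BMP10, a ligand of ENG counted among the 4 that rose, had 2 counts in all MmC-/GDF11- libraries against 42 in all MmC+/GDF11- libraries.

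Around CD44, 5 of 10 tested hyaluronan genes rose and 1 fell without GDF11, and 6 rose and 1 fell with it, or 6 and 7 of 10 called. The median log2 fold change was 0.49 without GDF11 and 0.60 with it. HAS1, a hyaluronan synthase, went from 0.567 ± 0.115 to 118 ± 101 CPM without GDF11 (SD, n = 4, log2 fold change 7.69, adjusted p = 5.18e-05), and its senescent libraries ran from 8.33 to 239 CPM. The synthase HAS2 went from 71.6 ± 29.1 to 178 ± 63.8 CPM (1.32, adjusted p = 0.00922) and did not pass without replicate 2 or without replicate 3 of every group. SPP1 (osteopontin), another CD44 ligand, rose from 0.197 ± 0.0566 to 1.53 ± 0.330 CPM (2.96, adjusted p = 2.47e-07). HMMR, a hyaluronan receptor that also acts on the mitotic spindle, fell from 57.9 ± 19.1 to 12.8 ± 5.46 CPM (-2.18, adjusted p = 0.000375).

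Around NGFR, 6 listed genes of neurotrophins and their receptors were tested. Without GDF11 3 rose, 0 fell and 3 did not pass, and with it 2 rose, 0 fell and 4 did not pass. The median log2 fold change was 0.92 without GDF11 and 0.60 with it. The ligand BDNF rose from 27.2 ± 3.56 to 76.7 ± 28.3 CPM without GDF11 (SD, n = 4, log2 fold change 1.49, adjusted p = 0.00120) and also rose with it (1.38, adjusted p = 0.00202). NTRK2, the receptor tyrosine kinase for BDNF, passed without GDF11 (1.77, adjusted p = 0.0208) on 19 against 69 counts and not with it, although the interaction did not pass for it. It lost the call without MmC-/GDF11- replicate 2, 3 or 4 (adjusted p = 0.0652, 0.0605 and 0.0577) and without replicate 2 or 3 of every group (0.147 and 0.103). Around LEPR, 2 of 7 tested genes rose and 1 fell in both comparisons, a share near that of all genes, and the median log2 fold change was 0.11 in each. LEPROTL1, a relative of LEPROT, had a log2 fold change of 0.30 (adjusted p = 0.00564, or 0.0537 without replicate 3 of every group) and SOCS3, a feedback inhibitor of leptin signalling, one of -0.64 (adjusted p = 0.00642). LEP, the ligand, had 2 against 157 counts, and its senescent libraries ran from 0.0670 to 1.30 CPM.

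Of the proteases that shed or cut surface proteins, 4 genes are given by their values and no count is drawn, since the rest of that list is not reported here. MMP14, a membrane-bound metalloproteinase, rose from 576 ± 61.6 to 897 ± 76.1 CPM without GDF11 (SD, n = 4, log2 fold change 0.64, adjusted p = 9.00e-05) and by 0.68 with it (adjusted p = 4.90e-05). NCSTN of the gamma-secretase complex rose from 134 ± 22.4 to 264 ± 46.6 CPM (0.98, adjusted p = 0.000115) and by 1.10 with GDF11 (adjusted p = 3.96e-05). The sheddases ADAM10 and ADAM17 did not pass, at log2 fold changes of 0.25 (adjusted p = 0.169) and 0.26 (adjusted p = 0.0744) without GDF11 and 0.26 (adjusted p = 0.147) and 0.21 (adjusted p = 0.136) with it.

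**Figure D5:**
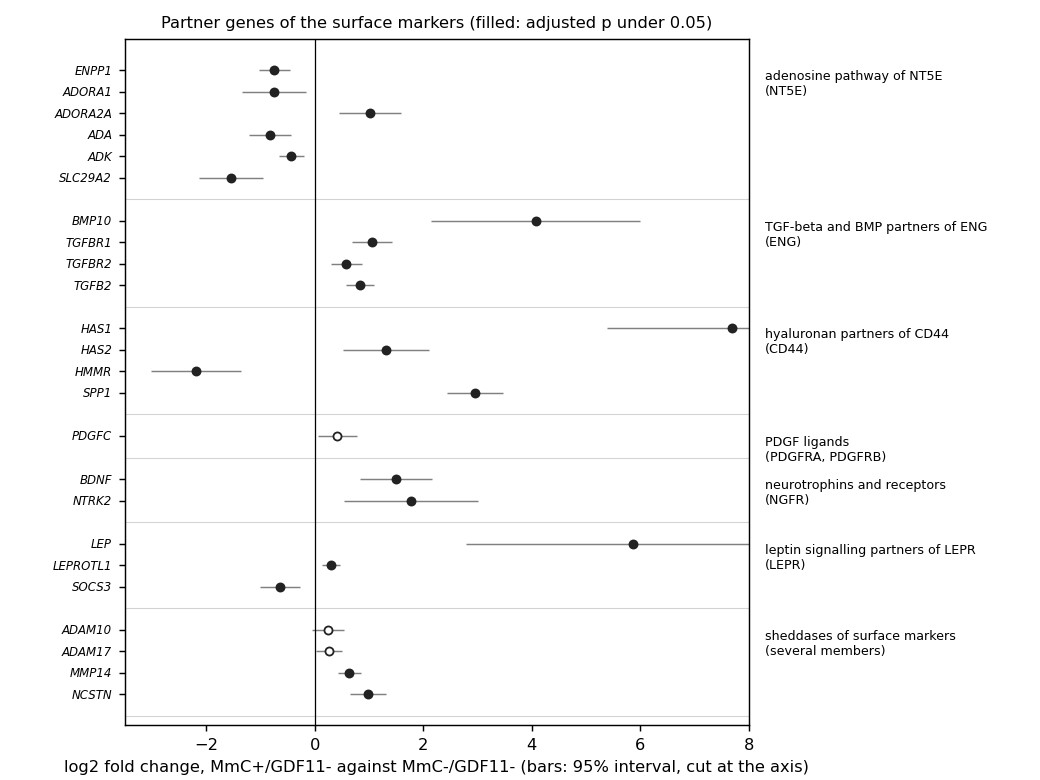
Fitted log2 fold changes of the partner genes named in the text for MmC without GDF11 (x axis, 95% intervals cut at the axis), grouped by the marker they belong to, filled where the adjusted p is under 0.05. HAS1 lies farthest to the right at 7.69 and HMMR farthest to the left at -2.18.

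The 10 markers were set beside 18 other stromal surface antigens. Of these, 4 rose and 2 fell without GDF11, and 5 rose and 2 fell with it, at median log2 fold changes of 0.22 and 0.28. The called shares, 6 and 7 of 18, were below those of all genes. DPP4 (CD26), a peptidase, had the highest called change, from 252 ± 111 to 626 ± 223 CPM without GDF11 (SD, n = 4, log2 fold change 1.31, adjusted p = 0.00321), and ANPEP (CD13) rose by 0.52 (adjusted p = 0.00254, or 0.0521 without replicate 3 of every group). CSPG4 (NG2), a proteoglycan that binds PDGF, had the lowest, from 67.0 ± 14.1 to 26 ± 4.31 CPM (-1.37, adjusted p = 4.49e-06). This count moved between alternatives, and so did that of all genes. With the block 11 passed without GDF11 (8 higher, 3 lower), beside the 57.9% of all genes. Without replicate 3 of every group 2 passed, where 5490 of all genes did. Without replicate 1 of every group 10 passed, where 10004 of all genes did, in place of 8655 with all libraries.

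Of 8 surface antigens that MSCs should lack, 5 passed the filter on low counts. The summed level was 9.76 to 22.0 CPM over all 16 libraries, most of it from CD34, which without GDF11 had 11.3 ± 5.23 CPM in young and 10.6 ± 3.45 CPM in senescent MSCs (SD, n = 4) and did not pass. ITGAM (CD11b) had 6 against 82 counts without GDF11, and CD14 rose from 1.69 ± 0.388 to 2.92 ± 1.28 CPM (0.79, adjusted p = 0.0299). CD14 lost this call without MmC+/GDF11- replicate 1 (0.45, adjusted p = 0.141), without MmC-/GDF11- replicate 3 (0.0837) or 4 (0.0741), and without replicate 3 (0.108) or 4 (0.109) of every group. PTPRC (CD45) had a mean of 0.378 CPM in young and 0.583 CPM in senescent MSCs without GDF11 and passed with GDF11 (0.90, adjusted p = 0.00989) and not without it. Without replicate 2 or 4 of every group it did not pass with GDF11 either (adjusted p = 0.0622 and 0.0648). HLA-DRA had 0 counts in all 16 libraries.

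Markers of other cell types were counted in the same way, and their levels differed between the lists. Of 6 tested blood and macrophage genes, 3 rose and none fell without GDF11 and 4 rose with it, where 45.3% and 46.7% of all genes were called, and their summed level was 2.37 to 3.47 CPM in the MmC- libraries and 5.14 to 6.54 CPM in the MmC+ libraries. CD163 went from 0.0602 ± 0.0319 to 1.17 ± 0.573 CPM without GDF11 (SD, n = 4, log2 fold change 4.31). Of 7 tested endothelial genes, 3 rose and 1 fell without GDF11 and 2 rose and 1 fell with it, at a summed level of 49.7 to 84.8 CPM in the MmC- libraries and 56.4 to 114 CPM in the MmC+ libraries. PECAM1 went from 5.96 ± 1.20 to 14.4 ± 5.90 CPM (1.27, adjusted p = 0.00966), a call that was lost without replicate 3 (adjusted p = 0.0850) or 4 (0.0770) of every group. CDH5 went from 2.42 ± 0.468 to 0.850 ± 0.116 CPM (-1.51, adjusted p = 4.48e-06). Of 7 tested pericyte and smooth muscle genes, NOTCH3 alone rose in both comparisons, from 51.5 ± 11.7 to 120 ± 4.48 CPM without GDF11 (1.22, adjusted p = 4.48e-06). With the block 3 of them passed without GDF11, where 57.9% of all genes did. Their summed level was 172 to 256 CPM in the MmC- libraries and 245 to 341 CPM in the MmC+ libraries. Of 5 tested adipocyte genes, 1 rose and 1 fell without GDF11 and 2 rose and 1 fell with it, at a summed level of 1.38 to 2.74 CPM in all libraries. The gene that rose without GDF11 was LEP, which passed the filter only through other groups. FABP4 fell, but without GDF11 it lost the call without a filter on low counts (adjusted p = 0.0589). It also lost it without replicate 2 (0.155), 3 (0.0697) or 4 (0.168) of every group. None of the genes on any of the partner and cell type lists passed for GDF11 in young or in senescent MSCs, or in the interaction. The part of these cell type markers in the changes of the surface markers was not tested.

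The genes whose pattern over the 16 libraries was most like that of each marker were named by the smallest root mean square difference of centred log2 CPM among 10959 protein-coding genes. This is a description of 16 libraries that share groups and replicate numbers. NT5E was nearest to PRRC1 (0.06 on the log2 scale) and PIP4P2 (0.07), CD44 to FBXO33 (0.07), ALCAM to ZBTB11 (0.06) and INTS6 (0.07), and ENG to RTF1 (0.06) and DKK3 (0.06). PDGFRA was nearest to ZNF608 (0.10) and TOP2B (0.10), PDGFRB to DPYD (0.09) and THRA (0.10), and LEPR to ZNF654 (0.08) and SLC25A36 (0.09). The most distant neighbours were ME1 (0.14) and XXYLT1 (0.15) for THY1, MYO10 (0.19) and SIPA1L1 (0.20) for MCAM, and ERN1 (0.29) and SCG2 (0.30) for NGFR. This difference depends on the marker's own spread, an SD of 0.09 for ENG and 1.48 for NGFR on the log2 scale. It therefore does not rank the markers by how well their pattern was matched. Among the markers themselves NT5E and CD44 were the closest pair (0.09), followed by NT5E and ALCAM (0.14), and PDGFRA and PDGFRB differed by 0.18.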

How the data were processed

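Poly(A) RNA of 16 ASC52telo libraries was sequenced. Per the study's methods, the authors mapped paired reads to hg38 with HISAT2 2.2.1 and counted them per gene with featureCounts 2.0.1 on GENCODE 38, and the deposited files hold raw counts. The strand setting is not given in the sources used here. Identifiers were matched to GENCODE v44 (60463 of 60649, with 142 not matched and 44 PAR_Y copies left out of the match). Groups came from the sample labels.

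Genes were kept by filterByExpr (minimum count 10, minimum total 15), scaled by TMM and fitted over all 16 libraries with edgeR 4.0.16 (robust quasi-likelihood test) in R 4.3.3, which left 19103 genes, and p-values were adjusted by Benjamini-Hochberg over these. CPM are counts over the TMM-scaled library size, times 1000000. Exon lengths are unions over all transcripts of GENCODE v44. The scripts were tested on simulated counts. Depth was 71275337 to 144204979 counts per library. The median squared difference between replicates of a group was 15.3 to 137 times that of counting noise, so no library was a copy of another in its group.

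The alternatives were scaling by RLE or by upper quartiles, testing without a filter, a filter of at least 10 counts in every library, fits of only those libraries that are compared, a replicate block, limma-voom (limma 3.58.1), DESeq2 1.42.0, glmTreat against a log2 fold change of 1, and each library left out. Leaving out each replicate number, other scalings of levels, leaving out libraries of the receptor ratio and all alternatives for the partner lists were added after seeing the data. Replicate numbers pair libraries where every same-number correlation of deviations is over 0.1. This held for MmC without GDF11 (lowest 0.113) and GDF11 in senescent MSCs (lowest 0.448), and not for MmC with GDF11 (0.0293) or GDF11 in young MSCs (0.0982). For MmC without GDF11 the lowest value was that of replicate 3. It lay below the correlations between replicates 3 and 4 of the 2 groups (0.134 and 0.151), so that pairing is weak for replicate 3.

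The text names the markers, of each partner list the called genes with the largest and smallest change and any other given with a value, and the 2 nearest protein-coding genes of each marker with a mean log2 CPM of at least 1. Some genes are not reported here. The markers and lists were chosen with earlier results of these data known. Promoter sequences are from RefSeq (GRCh38.p14). They matched 8 of the 10 markers, and windows inside exons are not shown.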

Additional observations from a re-analysis of the deposited data

Results flagged for a closer look

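Of the 40 sets of 4 libraries (10 markers in 4 groups), 5 held a library whose gap to the nearest other one was past Dixon's 95% critical value, which chance passes in about 1 in 20 sets. For THY1 these were MmC+/GDF11- replicate 1 at 1176 CPM, with the other libraries of that group at 548 to 633 CPM, and MmC+/GDF11+ replicate 1 at 1257 CPM, with the others at 546 to 642 CPM. For NGFR it was MmC+/GDF11- replicate 1 at 0.537 CPM, with the others at 1.52 to 1.71 CPM. For ENG they were MmC-/GDF11- replicate 3 at 515 CPM, with the others at 597 to 612 CPM, and MmC-/GDF11+ replicate 4 at 623 CPM, with the others at 545 to 555 CPM. The 3 libraries for THY1 and NGFR carry the number 1 in the senescent groups. Without MmC+/GDF11- replicate 1 the log2 fold change of NGFR without GDF11 was 3.29 in place of 3.01.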

How the results depend on the processing

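PDGFRA and PDGFRB kept their calls and directions for MmC in 20 of 21 alternatives each, and NGFR in 20 of 20 (it had too few counts for the filter of at least 10 counts in every library). NT5E kept its call in 18 of 21 without GDF11 and in 19 of 21 with it. The alternative that ended the calls of PDGFRA and PDGFRB was glmTreat, which asks for more than 2-fold and left 1 marker called for MmC without GDF11 and 1 with it, and 1294 and 1235 of all genes in place of 8655 and 8926. Leaving out single libraries left 4 to 6 markers called without GDF11 and 5 to 7 with it, the highest counts coming without replicate 1 of the senescent group, and 0 to 0 for GDF11 and the interaction. Leaving out a replicate number of every group left 3 to 6 and 3 to 7. Without replicate 3 of every group, 3 markers were called for MmC with GDF11, and 5490 (without GDF11) and 5505 (with it) of all genes, from 12 libraries in place of 16. For GDF11 in young MSCs DESeq2 called 1 gene of all, and so did the fit without replicate 2 of every group. No called change turned its direction, while ENG, never called, ran from -0.11 to 0.00 on the log2 scale for MmC with GDF11.

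With the replicate block, 7 markers were called for MmC without GDF11 in place of 4, since THY1, CD44 and ALCAM joined, and 11066 of all genes in place of 8655. For MmC with GDF11, where replicate numbers did not pair the libraries by the rule, the block also gave 7 in place of 5, and 11267 of all genes in place of 8926, with THY1 at -0.50 (adjusted p = 0.00222) and ALCAM at 0.29 (adjusted p = 0.0323) added. The block changed no other call of a marker. CD44 without GDF11 also passed with RLE scaling (adjusted p = 0.0418), upper-quartile scaling (0.0327), the stricter filter (0.0307), limma-voom (0.0449) and DESeq2 (0.0180).

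The mean log2 ratio of PDGFRB to PDGFRA, from raw counts without division by length, was -0.38 and -0.42 in young MSCs (without and with GDF11) and -0.25 and -0.29 in senescent MSCs, a shift set by the lengths alone. Without single libraries the ratio per length ran from -0.07 to 0.11, -0.06 to 0.08, 0.12 to 0.22 and 0.07 to 0.16 in the same order. Of the changes of called partner genes, 1513 values over the alternatives kept the call and 224 lost it, and none changed direction. The scarce genes are limited by depth, with NGFR at 9 to 18 counts in young libraries.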
